A study of Homo sapiens with 4 samples.

Results

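The genes described here encode 2 families of splicing factors, the heterogeneous nuclear ribonucleoproteins (hnRNPs) and the serine and arginine rich (SR) proteins. They were taken by name alone from the deposited expression table: every entry of the mRNA class whose symbol begins with HNRNP, or with SRSF and a digit, apart from hyphenated readthrough names. This gave 37 of the 28198 genes in the table, of which 25 were HNRNP genes and 12 were SRSF genes. Of these, 32 averaged 1 FPKM or more (a fragment count normalised to transcript length and library) and were analysed, 21 from the HNRNP and 11 from the SRSF family. The other 5 were HNRNPCL1, listed at 0.0352 FPKM in 1 library and at 0 elsewhere, HNRNPCL2, HNRNPCL3 and HNRNPCL4, listed at 0 throughout, and SRSF12, listed at 0.0167 FPKM in 1 library and at 0 elsewhere.

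The study asked how acetylation of METTL3, the catalytic subunit of the m6A RNA methyltransferase, bears on mRNA translation. MDA-MB-231 cells, a mesenchymal triple-negative breast cancer line, were depleted of endogenous METTL3 and reconstituted by lentivirus with either WT-METTL3 or K177Q-METTL3, in which glutamine replaces a lysine to mimic acetylation. Both cultures were treated with cycloheximide, which holds ribosomes on mRNA, and the lysates were separated on sucrose gradients into a sub-polysome fraction (RNA with free subunits or single ribosomes) and a polysome fraction (RNA with several ribosomes). Poly(A)-selected RNA of each fraction was sequenced, giving 4 libraries, all of replicate 2. With 1 library per condition there was no replicate spread for any difference, so values are given without tests, and intervals of medians are distribution-free 95% intervals over genes that cover only the spread between genes.

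hnRNPs are abundant nuclear proteins that coat nascent transcripts through RRM or KH domains, and many of them repress the use of nearby splice sites. SR proteins carry RNA recognition motifs and a tail of arginine and serine dipeptides, bind exonic enhancers, and recruit the spliceosome to flanking sites. Members of both families shuttle to the cytoplasm and take part in mRNA export, stability and translation. Several also limit their own expression by splicing in exons that carry premature stop codons, so that the transcript is degraded by nonsense-mediated decay. Among the factors linked to m6A, HNRNPA2B1 and HNRNPC have been described as proteins that recognise the mark or the RNA structure it alters, and SRSF3 and SRSF10 as partners of the nuclear m6A reader YTHDC1.

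The libraries held 15773 to 16193 genes above 0, with FPKM totals between 767949 and 1037594. The table gives no read counts, so the depth is unknown. The mesenchymal markers VIM, CD44, AXL, CAV1 and MSN lay between 88.6 and 1543 FPKM. The hormone receptor genes ESR1 and PGR and the epithelial CDH1 were under 1 FPKM in each library, whereas ERBB2 at 12.2 to 28.3 FPKM and EPCAM at 6.20 to 9.91 FPKM, 2 further genes taken as low in this line, were not. The summed level of 4 markers of blood, endothelium, liver and gut was 0.589 to 1.84 FPKM, with KRT20 at 0 throughout. METTL3 itself was listed at 9.39 FPKM in sub-polysomes and 38.7 in polysomes of WT cells, and at 5.07 and 29.5 FPKM in K177Q cells. A gene-level value does not separate the introduced alleles from each other or from the endogenous gene.

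In WT cells most hnRNP mRNAs were concentrated in the polysome fraction. The polysome to sub-polysome ratio had a median of 2.20-fold over the 21 HNRNP genes, a log2 value of 1.14 with an interval of 0.92 to 1.22, and 18 of 21 were at least 1.5-fold higher in polysomes. SRSF mRNAs were more evenly spread, with a median of 1.33-fold (log2 0.41, interval −0.07 to 0.59), and 2 of 11 passed the same limit. Over all 10905 features kept the median was 1.11-fold, 28.1% were past that limit and 19.1% were past it in the other direction. These ratios, here and throughout, are on the scale of log2(FPKM + 0.1), and they compare shares of 2 libraries and not amounts of RNA in the cell. Of the HNRNP genes 19 of 21 were above the SRSF median, and SRSF7 was the 1 SRSF gene above the HNRNP median. The ranges overlapped, from −0.32 to 1.78 on the log2 scale for HNRNP and from −0.68 to 1.32 for SRSF genes, and 4 of 21 HNRNP genes were above every SRSF gene. HNRNPH2, counted among these 4 and among the 18, shares exons with a readthrough entry. Its log2 ratio of 1.75 became 0.34 for the sum of both entries.

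Together the HNRNP genes took 0.178% of all FPKM in the WT sub-polysome library and 0.403% in the WT polysome library. In K177Q cells these shares were 0.135% and 0.397%. The SRSF genes took 0.0812% and 0.120% in WT cells and 0.0619% and 0.114% in K177Q cells. The share of both families was thus lower in K177Q cells in both fractions, by more in the sub-polysome library. These shares also depend on the FPKM totals. In sub-polysomes the total was 899550 in WT and 1037594 in K177Q cells, and in polysomes 818984 and 767949. The summed HNRNP level was 1604.5 and 1401.5 FPKM in WT and K177Q sub-polysomes, and 3300 and 3051 FPKM in polysomes. For SRSF genes these sums were 730 and 642 FPKM, and 984 and 873 FPKM.

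**Figure D1:**
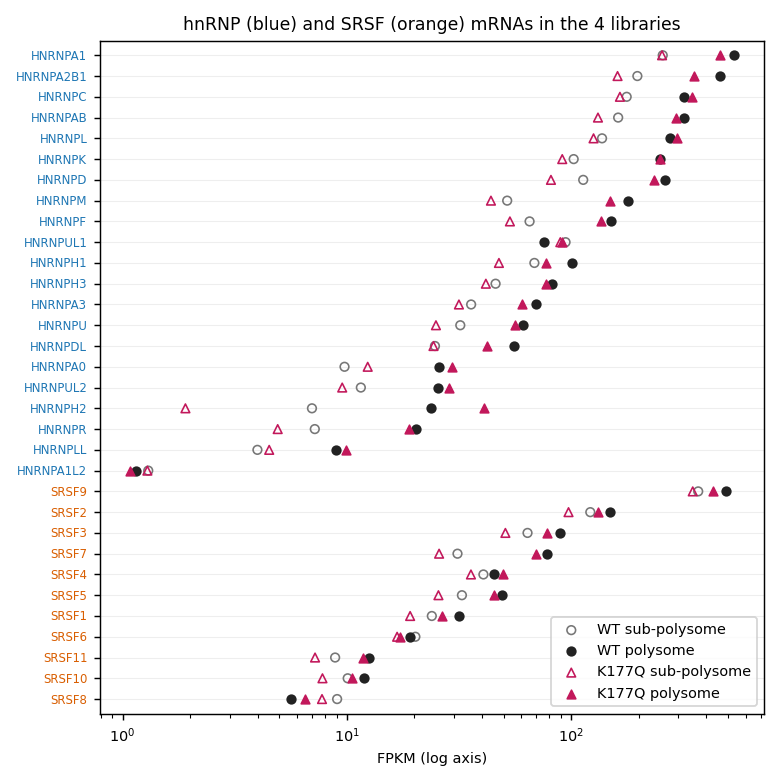
FPKM (log axis) of the 32 genes kept in the 4 libraries, with circles for WT, triangles for K177Q, open symbols for sub-polysomes and filled symbols for polysomes. The genes span from 1.08 FPKM for HNRNPA1L2 to 533 FPKM for HNRNPA1, and filled symbols lie to the right of open ones for most HNRNP genes.

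HNRNPA1, which binds exonic silencers and is among the most abundant hnRNPs, had the highest mean of the HNRNP genes. It was listed at 256 FPKM in sub-polysomes and 533 in polysomes of WT cells and at 254 and 461 FPKM in K177Q cells. Its polysome level was therefore lower in K177Q cells while its sub-polysome level was nearly equal, and 74 pseudogenes that carry its name in the annotation may share its reads. HNRNPA2B1, its close relative, was listed at 197 and 459 FPKM in WT sub-polysomes and polysomes and at 161 and 354 FPKM in K177Q cells. HNRNPC, which binds uridine tracts, was listed at 176.8 and 320 FPKM in WT and at 165 and 347 FPKM in K177Q cells. Of these 3 genes HNRNPC was the one with a higher polysome level in K177Q cells. Fewer pseudogenes are named after other genes kept, among them 16 for HNRNPA3, 9 for HNRNPC and 4 for HNRNPDL. HNRNPK and SRSF3 have 5 each, and such pseudogenes may share reads in the same way.

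HNRNPM had the highest WT polysome to sub-polysome ratio of the HNRNP genes, 3.44-fold, with 51.8 FPKM in sub-polysomes and 179 in polysomes. The ratio was 3.38-fold in K177Q cells, from 43.9 and 148 FPKM. This splicing regulator placed at percentile 98.9 of the 10383 mRNAs kept in WT cells and at percentile 98.3 in K177Q cells.

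At the other end, HNRNPUL1, a relative of the scaffold protein HNRNPU, was listed at 94.4 FPKM in sub-polysomes and 75.5 in polysomes of WT cells, a ratio of 0.801-fold. In K177Q cells it was listed at 89.5 and 91.0 FPKM, a ratio of 1.02-fold. HNRNPA1L2, a single-exon gene related to HNRNPA1, was listed at 1.30 and 1.15 FPKM in WT and 1.29 and 1.08 FPKM in K177Q cells. It was the least abundant of the genes kept, its reads may come in part from HNRNPA1, and its values are uncertain. HNRNPH1 was the remaining HNRNP gene under 1.5-fold in WT cells.

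Of the SRSF genes, SRSF7, a zinc knuckle SR protein that also acts in mRNA export, stood apart with 31.1 FPKM in sub-polysomes and 78.1 in polysomes of WT cells, a 2.51-fold ratio. SRSF5 followed with 32.6 and 49.2 FPKM, a 1.51-fold ratio. SRSF6 was listed at 20.2 and 19.2 FPKM, close to equal in both fractions. SRSF8, a single-exon gene derived from SRSF2, was listed at 9.05 and 5.61 FPKM, a ratio of 0.624-fold, and was the 1 gene of the 32 at least 1.5-fold lower in WT polysomes.

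SRSF9 was the most abundant SRSF gene, with 368 FPKM in sub-polysomes and 493 in polysomes of WT cells and 348 and 427 FPKM in K177Q cells. SRSF2, a founding SR protein of nuclear speckles, was listed at 122 and 148 FPKM in WT and 97.3 and 131 FPKM in K177Q cells. SRSF3, the smallest of the family, was listed at 63.9 and 89.3 FPKM in WT and 50.9 and 77.9 FPKM in K177Q cells. Each of these 3 genes was lower in K177Q cells in both fractions.

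**Figure D2:**
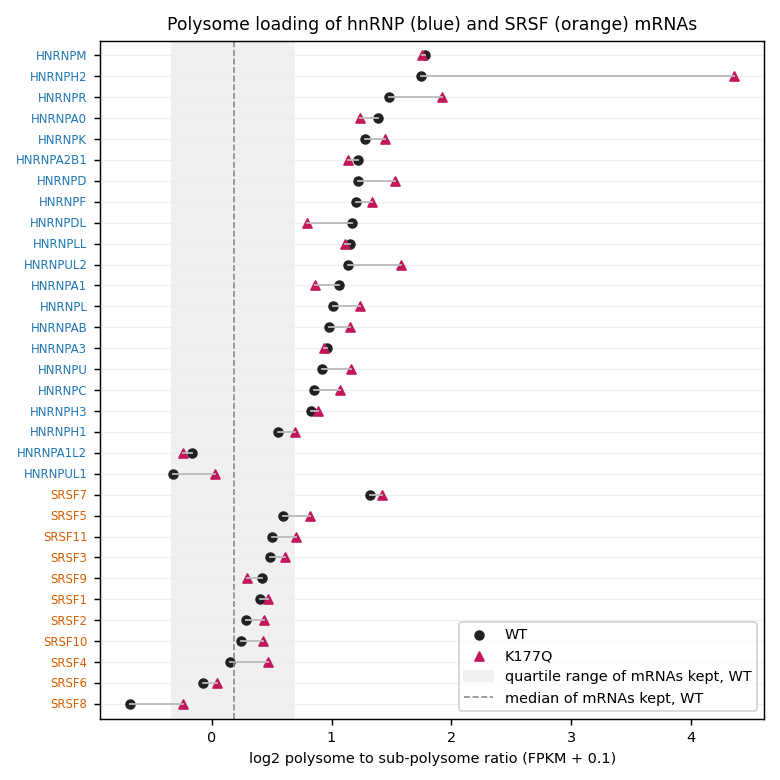
Log2 polysome to sub-polysome ratio (horizontal axis) of each gene in WT (circles) and K177Q cells (triangles), with the median (dashed line) and the range between quartiles (grey band) of 10383 mRNAs in WT cells. HNRNP genes lie to the right of the band except HNRNPH1, HNRNPA1L2 and HNRNPUL1, SRSF7 is the SRSF gene to its right in WT cells, and HNRNPH2 has by far the longest shift between genotypes.

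The order of the genes in K177Q cells resembled that in WT cells. The HNRNP median was 2.22-fold (log2 1.15) and 19 of 21 were at least 1.5-fold higher in polysomes. HNRNPH2 was among the 19, with a log2 ratio of 4.36 that became 0.51 when summed with its readthrough entry. The SRSF median was 1.38-fold (log2 0.47), and 4 of 11, SRSF3, SRSF5, SRSF7 and SRSF11, were at least 1.5-fold higher. None of the 32 was at least 1.5-fold lower. Over all features kept, 30.2% were past 1.5-fold towards polysomes and 21.3% towards sub-polysomes, with a median of 1.12-fold.

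Translation efficiency, polysome FPKM over sub-polysome FPKM, was then compared between genotypes. HNRNPH2 was the 1 gene of the 32 at least 1.5-fold higher in K177Q cells, and none was at least 1.5-fold lower, against 4.08% of all features kept that were higher and 7.03% that were lower. The same gene was alone past 1.5-fold within each fraction, higher in polysomes (2.13% of all features higher and 3.13% lower) and lower in sub-polysomes (4.01% higher and 2.94% lower). With each library rescaled to the same total (TPM), 7 of the 32 (21.9%) were higher and none lower, beside 2070 (18.6%) higher and 315 (2.83%) lower of the 11143 features then kept, in place of 445 and 767. With deposited values the other 31 genes lay within log2 ratios of −0.38 and 0.44. Their median was 0.14, with an SD over genes of 0.19, beside −0.01 for all features kept.

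The HNRNPH2 value belongs to a gene that shares its exons with a readthrough gene. HNRNPH2, whose protein binds G-rich tracts and closely resembles HNRNPH1, was listed at 6.99 FPKM in sub-polysomes and 23.7 in polysomes of WT cells and at 1.91 and 41.1 FPKM in K177Q cells, a 6.11-fold higher translation efficiency. RPL36A-HNRNPH2, which joins the neighbouring ribosomal protein gene to it on the same strand, was listed at 32.7 and 26.5 FPKM in WT and at 30.7 and 5.35 FPKM in K177Q cells, a log2 ratio of −2.20. The readthrough entry thus exceeded HNRNPH2 in 3 of the 4 libraries and moved the opposite way.

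Summed, both entries gave 39.7 FPKM in sub-polysomes and 50.2 in polysomes of WT cells and 32.6 and 46.4 FPKM in K177Q cells. The log2 translation efficiency ratio of the sum was 0.17. This is close to HNRNPH1, the paralogue on another chromosome, at 0.14, which was listed at 68.5 and 101 FPKM in WT and at 47.6 and 77.3 FPKM in K177Q cells. With HNRNPH2 left out or summed in this way, 0 of the genes passed 1.5-fold. RPL36A, the other gene in the readthrough entry, was listed at 1727 FPKM in sub-polysomes and 1030 in polysomes of WT cells. In K177Q cells it was listed at 2268 and 794 FPKM, a log2 ratio of −0.77. How reads were divided between these entries cannot be read from the table, so the sum is not a value of HNRNPH2 alone.

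HNRNPUL2 had a similar neighbour. It was listed at 11.5 FPKM in sub-polysomes and 25.5 in polysomes of WT cells and at 9.53 and 28.6 FPKM in K177Q cells, a log2 ratio of 0.44 and the highest of the HNRNP genes after HNRNPH2. HNRNPUL2-BSCL2, which shares its exons, was listed at 0 in both sub-polysome libraries and at 1.56 and 5.00 FPKM in WT and K177Q polysomes. The sum of both entries had a log2 ratio of 0.59, just past 1.5-fold, a sum chosen after the values were seen. HNRNPL, SRSF1 and SRSF6 also overlap an exon of another protein-coding entry on the same strand in the annotation used here.

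**Figure D3:**
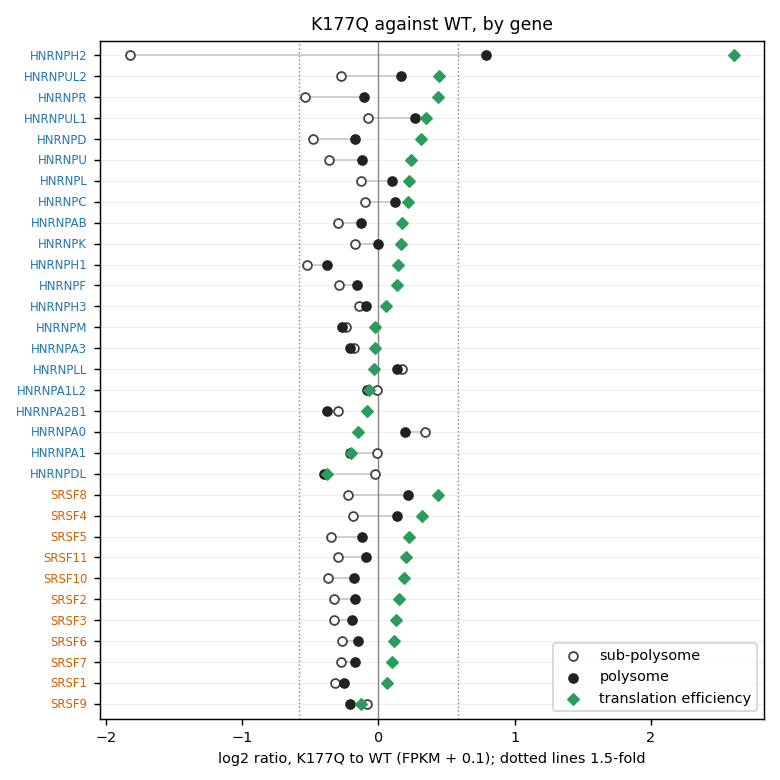
Log2 ratio of K177Q to WT cells (horizontal axis) for each gene in sub-polysomes (open circles), in polysomes (filled circles) and in translation efficiency (diamonds), with dotted lines at 1.5-fold. Open circles lie left of 0 for 30 of the 32 genes, beside 5513 of all 10905 features kept (not drawn). HNRNPH2 alone has points beyond the dotted lines.

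In sub-polysomes all 11 SRSF genes were lower in K177Q than in WT cells, at every scaling tried, and their values were close together, from −0.37 to −0.08 on the log2 scale with a median of −0.29 (interval −0.35 to −0.18). Of the HNRNP genes 19 of 21 were lower, with a median of −0.18 (interval −0.30 to −0.08), and this became 17 of 21 when libraries were scaled by median-of-ratios size factors. The exceptions with deposited values were HNRNPA0 and HNRNPLL. The median of all features kept was 0.00, their quartiles were −0.20 and 0.19, and 5513 of 10905 were lower. No gene but HNRNPH2 was 1.5-fold lower, so the difference was small for each gene and shared by nearly all of them.

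In polysomes 9 of 11 SRSF and 14 of 21 HNRNP genes were lower in K177Q cells, the latter becoming 11 of 21 under TPM. Of all features kept, 5856 of 10905 were lower there with deposited values. The median log2 ratios were −0.17 for SRSF and −0.11 for HNRNP genes, beside −0.02 for all features kept. The sub-polysome difference was larger than the polysome one, so 10 of 11 SRSF and 13 of 21 HNRNP genes had a log2 translation efficiency ratio above 0. Of all features kept, 5332 of 10905 were above 0. Under TPM the SRSF and HNRNP counts were 11 of 11 and 20 of 21, because rescaling added 0.28 to 0.30 to the log2 ratio of each gene. The median of all features kept was then 0.29. Relative to the median of all features the families were 0.15 higher for HNRNP and 0.16 higher for SRSF genes with deposited values, and 0.16 higher for both under TPM. For HNRNP genes this became 0.05 with no filter on low values and 0.25 with a minimum mean of 10 FPKM. The interval of the median ratio itself was −0.04 to 0.24 for HNRNP and 0.06 to 0.32 for SRSF genes.

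SRSF8 had the highest translation efficiency ratio of the SRSF genes, a log2 value of 0.44, with 7.75 FPKM in sub-polysomes and 6.53 in polysomes of K177Q cells against the WT values above. SRSF4, with a long arginine and serine tail, was listed at 40.6 and 45.1 FPKM in WT and 35.7 and 49.5 FPKM in K177Q cells, a log2 ratio of 0.32. SRSF5 was listed at 25.6 and 45.3 FPKM in K177Q cells, a log2 ratio of 0.23. SRSF8 and SRSF4 were the SRSF genes higher in K177Q polysomes, by 0.22 and 0.13, and lower in sub-polysomes.

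The lowest SRSF ratio was that of SRSF9 at −0.12, the 1 SRSF gene below 0 with deposited values and above 0 under TPM and with equal totals set without ribosomal protein genes. SRSF1, the prototype of the family, followed at 0.06, with 23.9 and 31.7 FPKM in WT and 19.1 and 26.6 FPKM in K177Q cells. SRSF7 was at 0.10, with 25.8 and 69.3 FPKM in K177Q cells. SRSF6, with 16.7 and 17.2 FPKM in K177Q cells, was at 0.12. For SRSF1, SRSF6 and SRSF7 both fractions were lower in K177Q cells.

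SRSF3 and SRSF10, the partners of YTHDC1, had log2 ratios of 0.13 and 0.19. SRSF10, which acts as a repressor when dephosphorylated, was listed at 10.1 FPKM in sub-polysomes and 11.9 in polysomes of WT cells and at 7.78 and 10.5 FPKM in K177Q cells, the largest sub-polysome difference of the family at −0.37. HNRNPC and HNRNPA2B1 had log2 translation efficiency ratios of 0.22 and −0.08. The 4 factors linked to m6A thus lay among the other genes of their families, and HNRNPA2B1 was the 1 of them below 0. SRSF2 at 0.15 and SRSF11 at 0.20 completed the family.

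HNRNPR, which belongs to the SYNCRIP-related hnRNPs, was the third HNRNP gene in order, with 7.19 FPKM in sub-polysomes and 20.3 in polysomes of WT cells and 4.91 and 18.9 FPKM in K177Q cells, a log2 ratio of 0.44. The lowest were HNRNPDL, HNRNPA1 and HNRNPA0. HNRNPDL was listed at 24.7 and 55.8 FPKM in WT and 24.3 and 42.3 FPKM in K177Q cells, a log2 ratio of −0.38. HNRNPA0, a single-exon gene, was listed at 9.76 and 25.7 FPKM in WT and 12.4 and 29.4 FPKM in K177Q cells, a log2 ratio of −0.15, and it was higher in K177Q cells in both fractions. HNRNPA1 had a log2 ratio of −0.20.

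Close relatives differed. HNRNPD, which binds AU-rich elements and marks mRNAs for decay, was listed at 113 FPKM in sub-polysomes and 263 in polysomes of WT cells and at 81.3 and 234 FPKM in K177Q cells, a log2 ratio of 0.31, while its neighbour and paralogue HNRNPDL was the lowest of all genes. HNRNPAB, of the same subfamily, was at 0.17. The A-type hnRNPs HNRNPA0, HNRNPA1, HNRNPA1L2, HNRNPA2B1 and HNRNPA3 (log2 −0.03) were all below 0, from −0.20 to −0.03, a grouping made after the values were seen. Under TPM each of them was above 0, and relative to all features each remained lower. Each has a coding sequence of 900 to 1200 bases, a range in which the median of mRNAs kept was −0.06 with deposited values. HNRNPA3 was above that median.

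The U-type genes HNRNPU, which tethers RNA to the nuclear scaffold, HNRNPUL1 and HNRNPUL2 lay between 0.24 and 0.44. Their coding sequences are of 1800 to 3000 bases, a range in which the median of mRNAs kept was 0.13. How far coding length goes with these subfamily differences was not tested. HNRNPF and HNRNPH3, of the G-tract binding subfamily, were at 0.14 and 0.05. HNRNPK, a poly(C) binding KH protein, was at 0.16, and HNRNPL, which binds CA repeats, was at 0.23. HNRNPLL, known for regulating CD45 splicing in lymphocytes, was at −0.04 and HNRNPM at −0.03.

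The genes were then set beside mRNAs of like length, because coding length went along with polysome loading in these libraries. Among mRNAs kept, the median log2 WT polysome to sub-polysome ratio went from −0.30 for coding sequences under 600 bases to 0.39 at 3000 bases or more, and the median log2 translation efficiency ratio from −0.27 to 0.24. HNRNP genes had a median coding length of 1260 bases and SRSF genes of 786 bases, beside 1317 for all mRNAs kept. Within the same length bin, 19 of 21 HNRNP and 8 of 11 SRSF genes were above the median of mRNAs in WT polysome to sub-polysome ratio. For the translation efficiency ratio these counts were 14 of 21 and 11 of 11. In 600 to 900 bases, which held 7 SRSF genes, their median log2 translation efficiency ratio was 0.15 and that of the 1540 mRNAs was −0.14.

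A like comparison was made by abundance. Among the 1162 mRNAs averaging 100 FPKM or more, the median log2 translation efficiency ratio was −0.26, and 10.5% were at least 1.5-fold lower. All 11 of the HNRNP and SRSF genes in that range were above this median, the 9 HNRNP genes with a median of 0.16 and the 2 SRSF genes with one of 0.01. Among the 1674 mRNAs of 30 to 100 FPKM, with a median of −0.09, 9 of 10 were above. Of 10 to 30 FPKM 7 of 8 were above a median of 0.03, and of 1 to 10 FPKM 1 of 3 was above a median of 0.10. Over all ranges of abundance 17 of 21 HNRNP and 11 of 11 SRSF genes were above the median of their range. In sub-polysomes 3 of 21 HNRNP and 0 of 11 SRSF genes were above it. The bins were chosen with the members' values known and are a description.

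The families also differ in gene structure. The part of the canonical transcript outside the coding sequence had a median of 2507 bases in SRSF genes, 2003 in HNRNP genes and 1397 in all mRNAs kept. All 11 SRSF genes had at least 1 annotated transcript of the nonsense-mediated decay class, as did 14 of 21 HNRNP genes (66.7%) and 48.2% of mRNAs kept. Retained-intron transcripts were annotated for 9 of 11, 15 of 21 and 62.1%. The gene-level FPKM does not separate these transcripts from the coding ones.

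The start sites were read for oligopyrimidine tracts, since mRNAs that begin with one, such as those of ribosomal proteins, are under mTOR control. Start sites were taken from RefSeq (GRCh38.p14), which gave 30 of the 32 genes kept, with no entry for HNRNPA1 and SRSF2. HNRNPA1, a textbook example of an mRNA with such a tract, is therefore missing from the counts. Its log2 translation efficiency ratio was −0.20. A tract was taken as a C followed by at least 4 pyrimidines, on the sense strand, beginning within 10 bases of the start site. It was found in 8 of 30 (26.7%) and in 33.5% of all 35116 start sites in the table. In HNRNPD, HNRNPH3, HNRNPU and SRSF7 the tract ended before the start site, and such letters are not part of the mRNA. Tracts that reached or followed the start site were counted after this was seen, and were found in 4 of 30 (13.3%) and in 23.4% of all start sites. The 4 genes were HNRNPA0, HNRNPA1L2, HNRNPUL2 and SRSF9, with log2 translation efficiency ratios of −0.15, −0.07, 0.44 and −0.12. For HNRNPA1L2 the RefSeq start site lies 24906 bases from the GENCODE start of the single-exon transcript described above, so its tract is uncertain. HNRNPA0 and SRSF9 are shown, whose tracts span the start site at the 11th base of the window. Each window runs from 10 bases before the start site over the first 20 bases of the transcript, with the tract in capitals.
HNRNPA0 (chr5:137754344-137754373, minus strand): gttcagcggCCTCTTTgtgtggtgcccaga
SRSF9 (chr12:120469729-120469758, minus strand): ctccgccgaCCCCTTCgcttccgctccgcg

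Another run of letters was noticed in these windows and then searched in all start sites. GCCATTT was found on the sense strand in 6 of 30 windows (20.0%) and in 0.453% of all windows of that length. On either strand, in promoters from 250 bases before to 50 bases after the start site it was found in 8 of 30 (26.7%), with HNRNPC and HNRNPM added, and in 4.39% of all promoters. The match was chosen after these sequences were seen and is a description of the letters only. Letters picked from these windows are bound to be frequent in them, and all start sites include those of genes not kept here. The shares therefore cannot show an enrichment. The 6 windows are shown with the match in capitals.
HNRNPD (chr4:82373972-82374001, minus strand): ccgttcttccgtcgGCCATTTtaggtggtc
HNRNPH1 (chr5:179623652-179623681, minus strand): gcccgctgGCCATTTcgtcttagccacgca
HNRNPR (chr1:23344265-23344294, minus strand): tggcgcgcgcGCCATTTctagtcgttttca
HNRNPUL1 (chr19:41264362-41264391, plus strand): ggcggcgGCCATTTtgagccgctgccgcca
SRSF1 (chr17:58007227-58007256, minus strand): tgataaaggcGCCATTTtggaggggccgcg
SRSF3 (chr6:36594352-36594381, plus strand): aggcggtggtccGCCATTTcgtggacgccg

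The log2 translation efficiency ratio had a median of 0.18 over the 8 genes with the match in the promoter and of 0.15 over the 22 without it. The 8 genes ran from −0.03 for HNRNPM to 0.44 for HNRNPR.

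Other proteins of the splicing machinery were taken as 4 lists. Among the 12 hnRNPs kept that go under other symbols, such as PTBP1 and PCBP2, the median log2 translation efficiency ratio was −0.01 and none passed 1.5-fold in either direction. PTBP2 was highest at 0.50, with 3.34 FPKM in sub-polysomes and 2.33 in polysomes of WT cells and 2.25 and 2.24 FPKM in K177Q cells. PCBP4 was lowest at −0.40, with 52.8 and 33.1 FPKM in WT and 59.8 and 28.4 FPKM in K177Q cells. Of the 49 core spliceosome proteins kept none passed 1.5-fold either, and their median was 0.01. Over all features kept 4.08% were higher and 7.03% lower. SNRPG, a ring subunit of the snRNPs, was the lowest core spliceosome gene at −0.58, just short of 1.5-fold. The median log2 WT polysome to sub-polysome ratio of this list was 0.81, between the HNRNP and SRSF families. In WT cells 34 of 49 (69.4%) were at least 1.5-fold higher in polysomes, beside 28.1% of all features kept.

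Among the 30 SR-related proteins, SR protein kinases and their importin TNPO3, the median log2 translation efficiency ratio was 0.19, 3 (10.0%) were at least 1.5-fold higher and none lower, beside 4.08% and 7.03% of all features. SON, a large speckle protein, was at 0.62, with 16.9 and 21.8 FPKM in WT sub-polysomes and polysomes and 11.1 and 22.0 FPKM in K177Q cells. SCAF11 was at 0.68, with at most 2.98 FPKM. LUC7L2 was at 2.15, yet the sum with its readthrough entry FMC1-LUC7L2 was at −0.03. In sub-polysomes 28 of the 30 were lower in K177Q cells, 4 of them (13.3%) by at least 1.5-fold beside 2.94% of all features, and the median was −0.29, which equals that of the SRSF genes to 2 decimals.

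Among 20 other splicing regulators kept the median was 0.21. Of these, 2 (10.0%) were at least 1.5-fold higher and none lower, beside 4.08% and 7.03% of all features. They were ZRANB2 at 0.60 and ESRP2 at 0.60, the latter with at most 1.66 FPKM. In sub-polysomes 19 of 20 were lower in K177Q cells. The core spliceosome list had 33 of 49 lower there, with a median of −0.10, and the hnRNPs under other symbols 7 of 12, with a median of −0.07. Of all features kept, 5513 of 10905 were lower in that fraction.

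**Figure D4:**
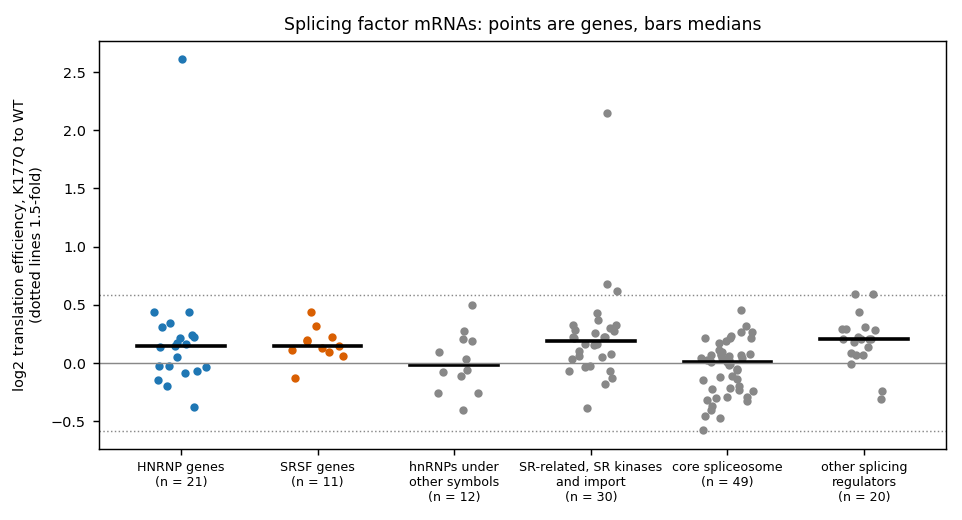
Log2 translation efficiency ratio of K177Q to WT cells (vertical axis) for the HNRNP and SRSF genes and 4 other lists of splicing proteins, with 1 point per gene, bars at the medians and dotted lines at 1.5-fold. The highest points, HNRNPH2 at 2.61 and LUC7L2 at 2.15, are both genes that share exons with a readthrough entry.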

How the data were processed

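The 4 libraries were poly(A)-selected and made with a directional kit. The authors deposited FPKM per gene, which were used as deposited. Submitters' processing notes name STAR 2.7, StringTie 2.1.5 and hg38 with no role or order, and the annotation is not given in the sources used here. The table holds 4 further value columns named like those used but with replicate number 1, and these were left out because no sample given here carries that number. Columns were read through their library names, translation efficiency was polysome over sub-polysome FPKM, and log2 values used a pseudocount of 0.1 FPKM. Genes averaging 1 FPKM or more were kept, and 1.5-fold was the study's threshold. Calculations used Python 3.11.15, pandas 2.3.3, numpy 2.4.6 and scipy 1.17.1, and the scripts were tested on simulated data. Coordinates and lengths came from GENCODE 44 by symbol, and start sites from RefSeq GRCh38.p14.

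Members and lists were chosen with earlier results of these data known. Library values were given for the 3 highest and 3 lowest genes of each family by translation efficiency ratio, the 2 highest and 2 lowest by WT polysome to sub-polysome ratio, the 3 most abundant, genes past 1.5-fold, factors linked to m6A, and HNRNPH2 with HNRNPH1. HNRNPD, the GCCATTT search, the HNRNPUL2 sum, the length and abundance bins and the list genes named were chosen after values were seen. Protein sequences were not used here. Alternatives were other pseudocounts, filters, scalings and thresholds, and HNRNPH2 left out or summed. With FPKM only, counting error cannot be given, and 1 library per condition leaves library differences and genotype differences impossible to tell apart.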

Additional observations from a re-analysis of the deposited data

Results flagged for a closer look

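For 7 of the 32 genes the log2 K177Q to WT ratio was above 0 in polysomes and below 0 in sub-polysomes, and these differences between fractions were not tested. Their log2 translation efficiency ratios were 0.22 for HNRNPC, 0.23 for HNRNPL, 0.32 for SRSF4, 0.35 for HNRNPUL1, 0.44 for SRSF8, 0.44 for HNRNPUL2 and 2.61 for HNRNPH2. The share, 21.9%, stood beside 44.2% of the 10383 mRNAs kept with opposite signs in the 2 fractions, in either order. For HNRNPUL1 (0.35) and SRSF6 (0.12) the polysome to sub-polysome ratio was below 1 in WT and above 1 in K177Q cells, which was not tested either. This held for 6.25% of the genes and for 12.6% of mRNAs kept, in either order.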

How the results depend on the processing

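Under TPM, 7 genes were at least 1.5-fold higher in translation efficiency (HNRNPD, HNRNPH2, HNRNPR, HNRNPUL1, HNRNPUL2, SRSF4 and SRSF8), and with equal totals set without ribosomal protein genes 4 were (HNRNPH2, HNRNPR, HNRNPUL2 and SRSF8), while 2070 and 1513 of all features were higher instead of 445, and 315 and 341 lower instead of 767. The median log2 translation efficiency ratio was 0.44 (HNRNP) and 0.45 (SRSF) under TPM and 0.38 and 0.39 with the other totals. The polysome to sub-polysome medians under TPM were 1.27 for HNRNP genes in WT cells, and 1.58 for HNRNP and 0.90 for SRSF genes in K177Q cells. The sub-polysome K177Q to WT medians were −0.39 (HNRNP) and −0.50 (SRSF) under TPM and −0.38 and −0.49 with the other totals. These shifts follow from the construction of the scalings, which add 0.28 to 0.30 and 0.22 to 0.24 to the log2 translation efficiency ratio of each gene. Without HNRNPH2, or with HNRNPH2 summed with RPL36A-HNRNPH2, 0 genes were higher (HNRNPH2 went from 2.61 to 2.23 with a pseudocount of 1 FPKM and to 0.17 when summed), and with HNRNPUL2 also summed with its readthrough entry 1 was. Of 221 values of single genes, 156 moved by less than 0.1, and 16 changed sign, 8 under each of the 2 scalings. With no filter 1823 of 28198 features were higher and 2140 lower. With a minimum of 10 FPKM these counts were 38 and 312 of 5379, and with a pseudocount of 1 FPKM 159 and 519 of 10905. In each of these settings 1 of the genes was higher and none lower. No paired analysis was possible because each condition had 1 library.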
